A study of Caenorhabditis elegans with 2 samples.

Results

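The ceh genes of Caenorhabditis elegans encode homeodomain transcription factors. They were taken here as every nuclear protein-coding gene of the WBcel235 annotation whose symbol is ceh- followed by a number, which gave 63 of 19973 coding genes: 18 on chromosome X, 13 on II, 12 on V, 8 on I, 8 on III and 4 on IV. RefSeq lists 64 coding ceh symbols. The additional one is ceh-44, a CUT-class gene that the Ensembl annotation carries under the symbol cone-1, and it is described separately.

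A homeodomain is a helical DNA-binding domain that contacts short, often AT-rich sites. Homeodomain proteins set regional and cell identity: Hox proteins pattern the body axis, often together with TALE-class (PBX) cofactors, while POU, LIM, sine oculis-type, paired-like, NK-like and CUT proteins specify neurons, muscle, pharynx and other tissues. In C. elegans neurons much of this work is done by combinations of homeodomain proteins, and CUT-class proteins act redundantly in genes that neurons of all types express. XBP-1, the protein mapped here, is a basic leucine zipper factor of the unfolded protein response: the sensor IRE-1 splices its mRNA when unfolded proteins collect in the endoplasmic reticulum, and the protein made from the spliced mRNA switches on chaperone and secretory pathway genes.

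Binding was mapped by chromatin immunoprecipitation and sequencing (ChIP-seq) of sonicated chromatin from 2 biological replicates of whole hermaphrodite L1 larvae of strain OP506, taken 6 h past the point at which starved L1 animals from bleached adults were synchronized. Per the labels, the strain has the genotype unc-119(tm4063) III with the integrated transgene wgIs506, which makes XBP-1 with a C-terminal GFP-FLAG tag; the promoter that drives it is not given in the sources used here, and no stress treatment is named. The labels' description names an anti-GFP antibody, which is taken here, while 1 other label field gives xbp-1. Both replicates form 1 group, so no condition could be compared with another: ceh genes were described against all coding genes. A control named in the labels was not used here.

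The authors deposited a thresholded list of 3641 peaks and longer relaxed lists of regions, which hold background as well as peaks: 26088 regions for the pooled replicates, 30000 for replicate 1 and 28535 for replicate 2. Each region has a summit and a signal value of unstated scale, assigned by the authors' caller, that served only to rank regions within 1 list, with rank 1 the strongest. The thresholded peaks were the regions ranked 1 to 3641 of the pooled list. The weakest of them had a signal value of 73.3, and the strongest region outside had 73.2. Because the lists carry regions and not reads, sequencing depth is unknown; the 95% Wilson intervals below cover counting error over genes or summits only. Chromatin came from whole animals, so binding in a few cells and weak binding in many cells cannot be told apart.

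Few ceh genes carried a thresholded peak at the promoter. The promoter window took in 1000 bp before and 200 bp after each coding transcript start. A thresholded summit lay in it for 4 of the 63 ceh genes, 6.35% (interval 2.5 to 15.2), beside 15.5% of all coding genes, a value just above the upper bound. That separation depended on the rule: under 7 of 9 other rules the coding share fell inside the ceh interval, as with the same number of peaks taken from replicate 2 alone (7.94%, 3.44 to 17.3, beside 15.4%) or from replicate 1 alone (9.52%, 4.44 to 19.3, beside 15.2%). The 4 genes were ceh-38, ceh-39, ceh-20 and ceh-92. Each had 1 such summit, so there were 6.35 promoter summits per 100 ceh genes and 16.3 per 100 coding genes. The ceh value was the lower one under all 9 rules. The share was 3.17% of ceh and 12.8% of coding genes with 500 bp upstream in place of 1000, 9.52% and 19.3% with 2000 bp, and 3.17% and 9.28% for the stronger 50% of the peaks.

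In the full relaxed lists the ceh shares were close to those of coding genes. A pooled region had its summit in the promoter window of 30 ceh genes, 47.6% (35.8 to 59.7), beside 40.9% of coding genes. Replicate 1 gave 31 ceh genes, 49.2% (37.3 to 61.2), beside 43.3%. Replicate 2 gave 28 ceh genes, 44.4% (32.8 to 56.7), beside 43.5%. In all 3 lists the coding-gene share lay inside the interval of the ceh share. The order of the shares depended on the rule: the 10000 strongest pooled regions gave 23.8% of ceh and 26% of coding genes, and replicate 2 with 500 bp upstream gave 31.7% and 34.2%, so ceh was then the lower one. The pooled list held 58.7 promoter summits per 100 ceh genes and 56.3 per 100 coding genes.

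**Figure D1:**
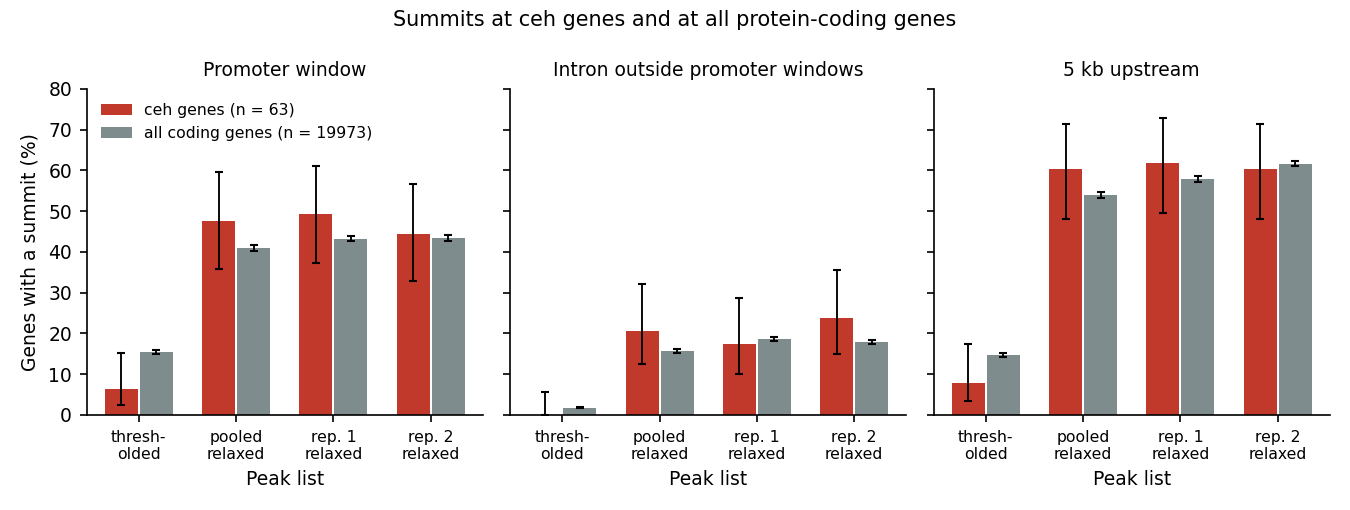
Share of the 63 ceh genes (red) and of all 19973 coding genes (grey) with at least 1 summit in the promoter window, in an intron outside promoter windows, or in the 5 kb upstream, for each of the 4 peak lists. Bars are percentages of genes and error bars are 95% Wilson intervals; for the thresholded list the ceh bar is the lower one in each panel (6.35% against 15.5% for promoters), while for the relaxed lists the ceh intervals reach the coding-gene bars.

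The thresholded and relaxed shares were joined by ranking the regions. When each gene was placed by its strongest pooled promoter region, 1 ceh gene (1.59%, 0.281 to 8.46) had a region among the top 1000 ranks, beside 5.65% of coding genes. Ranks 3642 to 10000 held the strongest region of 11 ceh genes, 17.5% (10 to 28.6), beside 10.5% of coding genes. Ranks 10001 to 26088 held that of 15 ceh genes, 23.8% (15 to 35.6), beside 14.9%. A gene counts only at its strongest region, so a smaller share with a thresholded peak leaves more genes for the lower ranks. The median rank of the strongest promoter region was 10040.5 over the 30 ceh genes that had one and 6064 over the 8168 coding genes that had one. The median pooled signal value was 29 for these ceh genes and 43.1 for these coding genes. Within single replicates the medians were closer: 7726 for ceh and 6874.5 for coding genes in replicate 1, and 9690 and 7202 in replicate 2.

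**Figure D2:**
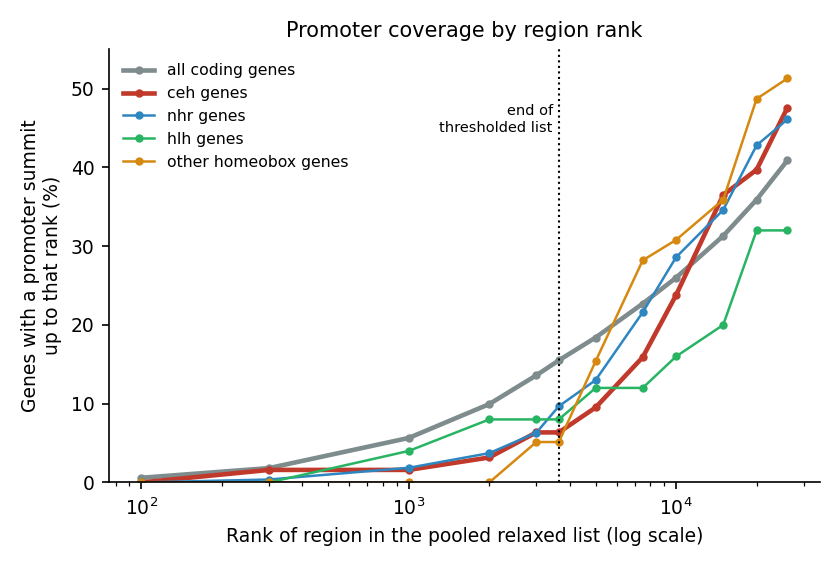
Cumulative share of genes with a promoter summit (%) as regions of the pooled list are taken from the strongest downwards; the x axis is the region's rank on a log scale and the dotted line marks the end of the thresholded list. The ceh line (red) lies below the line of all coding genes (grey) at rank 3641 and above it at the end of the list (47.6% against 40.9%).

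Other families of transcription factor genes were set beside the ceh genes on the same scale. Of 39 homeobox genes with other names, 2 had a thresholded promoter summit, 5.13% (1.42 to 16.9): lin-39, a Hox gene of the mid-body, with a peak of rank 2410 and signal value 112.8 at 89 bp upstream of its start, and cog-1, an Nkx6-type gene, with a peak of rank 2759 and signal value 97.0 at 494 bp upstream. Of the 269 nuclear hormone receptor genes named nhr, 26 had one, 9.67% (6.68 to 13.8). Of the 25 basic helix-loop-helix genes named hlh, 2 had one, 8% (2.22 to 25). The 4 intervals overlapped, and no difference among these families was tested. In the pooled list the shares were 51.3% for the other homeobox genes, 46.1% for nhr and 32% for hlh. The strongest pooled promoter region ranked from 3642 to 10000 in 25.6%, 19% and 8% of these genes, beside 17.5% of ceh genes.

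The strongest peak at a ceh promoter belonged to ceh-38, a CUT gene of the ONECUT type. It spanned chrII:6951414-6951706 (ce11), and its summit lay 38 bp downstream of the annotated start, in the 5′ untranslated region. Its pooled rank was 263 with a signal value of 531.3. Replicate 1 ranked its region 276 with a signal value of 269.2, and replicate 2 ranked it 235 with 270.7, with the same summit base in both. In all, 318 coding genes had a promoter summit at that rank or better. The same summit lay 264 bp upstream of malt-1, a paracaspase gene on the opposite strand, so the peak cannot be given to one of the pair.

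The next promoter peak was that of ceh-39, another CUT gene and one of the X-linked signal elements that count X chromosomes in sex determination. It spanned chrX:1856300-1856446, was 147 bp wide and had its summit 191 bp upstream of the start, with a rank of 1473 and a signal value of 176.2. Replicate 1 gave rank 1505 and signal value 89.7, and replicate 2 gave 1474 and 86.9. No other gene's promoter window held this summit.

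The promoter of ceh-20 held a weaker peak at chrIII:6978936-6979311. CEH-20 is the C. elegans PBX/Extradenticle-type cofactor that works with Hox proteins. Its summit lay 760 bp upstream of the start between coding genes, with a rank of 2925 and a signal value of 92. Replicate 1 gave rank 2932 and signal value 47.5, and replicate 2 gave 2703 and 48.9, with summits 88 bp apart. The last of the 4, at ceh-92 (chrIII:11580545-11580920), had rank 2952 and signal value 91.0. Its replicate regions ranked 3125 and 3008, with signal values of 44.8 and 44.1. That summit lay 867 bp upstream of ceh-92, in an untranslated region of Y66D12A.6, and 255 bp upstream of Y66D12A.7 on the opposite strand, which was the nearest start. With summits given only to the gene with the nearest start, 3 ceh genes remained, 4.76%, beside 11.4% of coding genes.

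The sequences under 3 of these peaks are shown because they are the strongest at ceh promoters, read from the RefSeq WBcel235 assembly on the strand of the ceh gene, 5′ to 3′. The first is the stretch of the ceh-38 peak before the annotated start, chrII:6951414-6951525 (plus strand, 112 bases), and the others run 50 bases to either side of the summit, chrX:1856313-1856413 (minus strand) for ceh-39 and chrIII:6979074-6979174 (plus strand) for ceh-20. Capitals mark the reverse complement of TGACGTG, the core of the element bound by XBP-1 and ATF6-type factors in unfolded protein response genes.
ceh-38: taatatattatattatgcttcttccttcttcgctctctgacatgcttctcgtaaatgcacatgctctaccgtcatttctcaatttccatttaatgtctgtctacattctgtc
ceh-39: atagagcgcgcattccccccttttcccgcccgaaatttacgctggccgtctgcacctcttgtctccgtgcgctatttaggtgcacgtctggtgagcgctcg
ceh-20: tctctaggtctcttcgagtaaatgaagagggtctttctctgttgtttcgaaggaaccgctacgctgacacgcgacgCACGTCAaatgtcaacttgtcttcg
The ceh-39 window was the richest of these in G and C, at 59.4%, beside 48.5% for the ceh-20 window. A window of the same length around the ceh-38 summit had 42.6%. The ceh-38 stretch shown, which ends before the summit, had 35.7%.

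In all, 6 motifs were looked for on both strands within 50 bp of the summits: TGACGTG, TGACGTCA (the palindromic cAMP response element, which shares the letters TGACGT with the first), CACGTG (the E-box), CCACGT (which overlaps the E-box in 5 letters), GAGAGAGA (a GA repeat) and TAATTA (a homeodomain core). Of the 11 distinct thresholded summits at ceh genes, upstream ones included, 1 had TGACGTG, at ceh-20, which is 9.09% (1.62 to 37.7) beside 3.43% of all 3641 thresholded summits. One had TGACGTCA, 1752 bp upstream of ceh-5, beside 1.68% of all. The other motifs of the 6 were in none of the 11 windows, which allows shares of up to 27.3%, taken as 3 counts over 11 (Wilson upper bound 25.9%). Over all thresholded summits CACGTG was in 5.47% of windows, CCACGT in 5.93%, GAGAGAGA in 6.62% and TAATTA in 1.65%. Of windows of the same length from 150 to 50 bp before each coding start, 1.11% held TGACGTG, 0.441% TGACGTCA, 2.45% CACGTG, 3.15% CCACGT, 1.48% GAGAGAGA and 6.18% TAATTA. Among the 37 pooled promoter summits of ceh genes, 1 window each (2.7%) held TGACGTG (1.85% of all pooled promoter summits), GAGAGAGA (3.07% of all) and TAATTA (3.89% of all). The TGACGTG window was the ceh-20 one already counted. The median G and C content of these windows was 48.5% at the 11 ceh summits and 47.5% at all thresholded summits. At 11 windows, a share as large as that of all peaks could not be told from 0.

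The strongest pooled ceh promoter region outside the thresholded list was that of ceh-13, the C. elegans labial/Hox1 gene. This region had pooled rank 3926 and signal value 67.1, with the summit at -793 bp (negative positions lie upstream of the start). Replicate 1 ranked it 4712 with signal value 29.1 at -772 bp, and replicate 2 ranked it 3324 with 39.9 at -814 bp. The 5 kb upstream of ceh-13 held 5 more pooled summits, more than for any other ceh gene in that list. All were weak, the strongest of rank 17126 and signal value 20.9. Replicate 1 had 3 summits there and replicate 2 had 1. The next ceh gene outside the thresholded list was ceh-100, with pooled rank 4535, signal value 57.1 and 3 pooled promoter summits. Its replicates differed: its strongest region had rank 2548 at -753 bp in replicate 1 and rank 8636 at -419 bp in replicate 2. After it came ceh-91 at rank 5589, ceh-5 at 5779 and ceh-6 at 6294.

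Among genes with well-described roles, the regions below the threshold were weak, and not every gene had one. For the POU gene ceh-6 the strongest pooled region had a signal value of 41.8 at 146 bp downstream of the start, with ranks of 8322 and 6168 in replicates 1 and 2. For the LIM gene ceh-14 it had rank 7940 and signal value 34.4 at -935 bp, and both replicates had a summit within a few bases of it, at -935 and -932 bp. For ceh-43, the Distal-less gene, it had rank 8089 and signal value 33.9 at -992 bp. Replicate 1 had 1 region in the ceh-43 window, elsewhere, with rank 10357 at -431 bp, and replicate 2 had none. For ceh-22, the Nkx2.5-type gene of pharyngeal muscle, it had rank 8595 and signal value 32.3. The Otx-type gene ceh-37, the POU gene ceh-18 and the PBX-type gene ceh-60 followed, with pooled ranks of 17368, 19538 and 20862 and signal values of 20.7, 19.3 and 18.5. The ceh-60 region was in the pooled list alone, and ceh-36, an Otx-type gene of chemosensory neurons, and ceh-40, the third PBX-type gene, had no promoter region in any of the 3 relaxed lists.

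**Figure D3:**
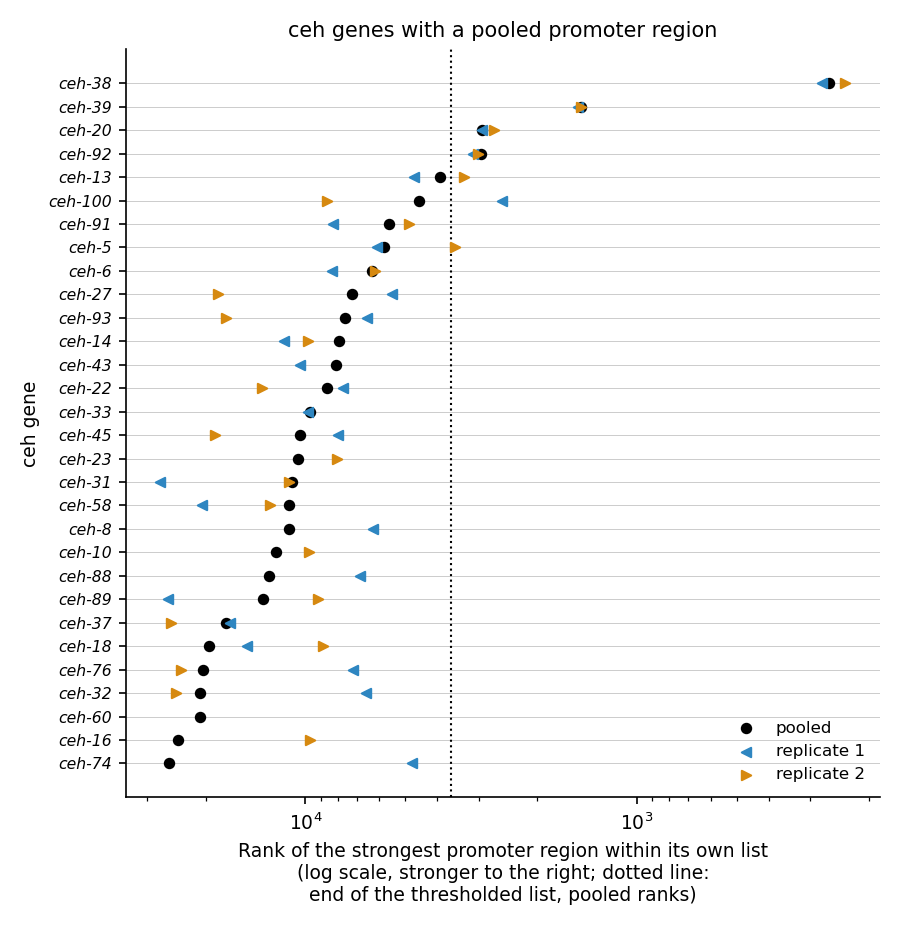
Rank of the strongest promoter region of the 30 ceh genes with a pooled promoter region, in the pooled list (black circles), replicate 1 (blue) and replicate 2 (orange), each ranked within its own list on a log scale with stronger regions to the right; a missing triangle means no region in that replicate. The 4 genes right of the dotted line, ceh-38, ceh-39, ceh-20 and ceh-92, have similar ranks in both replicates, and the spread between replicates is wider among weaker regions such as ceh-27 and ceh-32.

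Overlap with both replicates fell from the stronger to the weaker regions. The thresholded list was itself made from the 2 replicate lists and the pooled list. Overlap at its peaks is therefore no independent sign of agreement. All 4 thresholded promoter peaks of ceh genes overlapped a region in both replicates, beside 99.9% of those of all coding genes. For ranks 3642 to 10000 it was 12 of 14 regions, 85.7%, beside 91.7%, and for ranks 10001 to 26088 it was 6 of 19, 31.6%, beside 41.9%. Counted by gene, 22 ceh genes had a promoter summit in both replicates, 34.9% beside 32.8% of coding genes. Their strongest summits in the 2 replicates lay a median of 60 bp apart, beside 32 bp over 6561 coding genes. Thus 21 ceh genes had a summit in the pooled list and both replicates, 5 in the pooled list and replicate 1, 3 in the pooled list and replicate 2, and ceh-60 in the pooled list alone. Outside the pooled list, ceh-2 had a summit in both replicates, 4 genes had one in replicate 1 and 3 in replicate 2. Of the 37 ceh genes with a summit in either replicate, 59.5% had one in both, beside 60.9% of 10774 such coding genes.

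For 25 ceh genes, 39.7%, none of the 3 relaxed lists had a promoter summit, beside 45% of coding genes. By homeodomain class these were 3 of 6 CUT genes (ceh-21, ceh-48 and ceh-49), 7 of 19 NK-like genes (ceh-1, ceh-7, ceh-12, ceh-19, ceh-28, ceh-51 and ceh-63), 2 of 8 paired-like genes (ceh-36 and ceh-53), 1 of 3 sine oculis-type genes (ceh-34, which acts in pharyngeal neurons), 1 of 3 TALE genes (ceh-40) and 11 of the 20 genes given no class here. The genes given no class included 10 on chromosome II, of which 8 had no region. Chromosome II as a whole had 9 of its 13 ceh genes without a region, beside 51.8% of its coding genes. Sequence repeats can limit mapping: 5 ceh genes, 7.94%, had under 90% unique 31-base words in their promoter windows, beside 15.2% of coding genes. Of these 5, 4 had no pooled promoter summit, where 47.6% of all ceh genes and 40.9% of all coding genes had one. The share among coding genes with as few unique words is not given here. The part of mappability in this result was not tested.

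By class, the thresholded promoter peaks fell on 2 of 6 CUT genes, 1 of 3 TALE genes and 1 gene given no class. None of the 19 NK-like, 8 paired-like, 3 sine oculis-type and 2 POU genes, nor the only HOX and LIM genes, had one. Over all coding genes the thresholded share was 15.5%. A pooled promoter region lay at 7 NK-like, 4 paired-like, 2 sine oculis-type and both POU genes, beside 40.9% of coding genes. These classes are small, and 3 of the 6 CUT genes lie next to each other, so no share was compared between classes.

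Of the 8 thresholded summits upstream of ceh genes, 5 lay in the promoter window of another gene. In the 5 kb upstream, outside the gene's own promoter window, 5 ceh genes had thresholded summits, 7.94% (3.44 to 17.3), beside 14.6% of coding genes, a share inside that interval. With summits in the promoter windows of other genes left out, it was 3 ceh genes, 4.76% (1.63 to 13.1), beside 4.78%, so the shares were then nearly equal. With the upstream region ended at the neighbouring gene, it was 2 ceh genes, 3.17% (0.875 to 10.9), beside 4.36%. In the pooled list it was 38 ceh genes, 60.3% (48 to 71.5), beside 54%. Replicate 1 gave 39 genes, 61.9%, beside 57.9%, and replicate 2 gave 38 genes, 60.3%, beside 61.7%. With promoter, intron and upstream places together, 8 ceh genes had a thresholded summit, 12.7% (6.58 to 23.1), beside 27.9% of coding genes. Those 8 genes had 11 distinct summits, of which 6 lay in the promoter window of a gene that is not a ceh gene and 3 in no promoter window.

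The upstream summits were at ceh-5, ceh-8, ceh-21, ceh-39 and ceh-48. For ceh-5, an NK-like gene on chromosome I, a peak of rank 561 and signal value 348.3 lay 4917 bp upstream, within the promoter window of eat-16, a gene for a regulator of G protein signalling. A second, of rank 575 and signal value 344.1, lay 1752 bp upstream in no promoter window, over an ocrl-1 intron and an untranslated region of eat-16. Both had a region in each replicate, with ranks from 510 to 624. For ceh-8, a paired-like gene of the Rax type, peaks of ranks 2244 and 2957 lay 4049 and 4253 bp upstream. Both were in the shared promoter of fitm-2 and nol-16, and both matched the same region in each replicate. For ceh-48, a ONECUT-type gene of neurons, a peak of rank 2506 and signal value 107.5 lay 2152 bp upstream in no promoter window, at chrIV:6809768-6810143. Its replicate ranks were 2086 and 3497, with signal values of 67.2 and 38.

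The CUT genes ceh-39, ceh-21 and ceh-41 lie in a row on chromosome X in the same direction, with T26C11.9 between the first and the second. The gaps between annotated genes were from 24 bp, between ceh-39 and T26C11.9, to 103 bp, between ceh-21 and ceh-41. Besides the promoter peak of ceh-39, a peak of rank 1581 and signal value 166.4 lay 2566 bp upstream of ceh-39 at chrX:1858550-1858925, in no promoter window. Its replicate ranks were 1687 and 1575, with signal values of 81.4 and 82.4. A peak of rank 3092 and signal value 86.5 lay at the start of T26C11.9, 57 bp into it and 1056 bp upstream of ceh-21. A further peak, of rank 3542 and signal value 75.1, lay past ceh-41 over the start of T26C11.4. No thresholded summit lay in the promoter windows of ceh-21 and ceh-41. In the relaxed lists the ceh-41 window had 1 region, of rank 19070 in replicate 1, and the ceh-21 window had none. These adjacent genes share peaks and are not independent members: the ceh-39 promoter peak also counted as upstream of ceh-21, 3627 bp away.

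**Figure D4:**
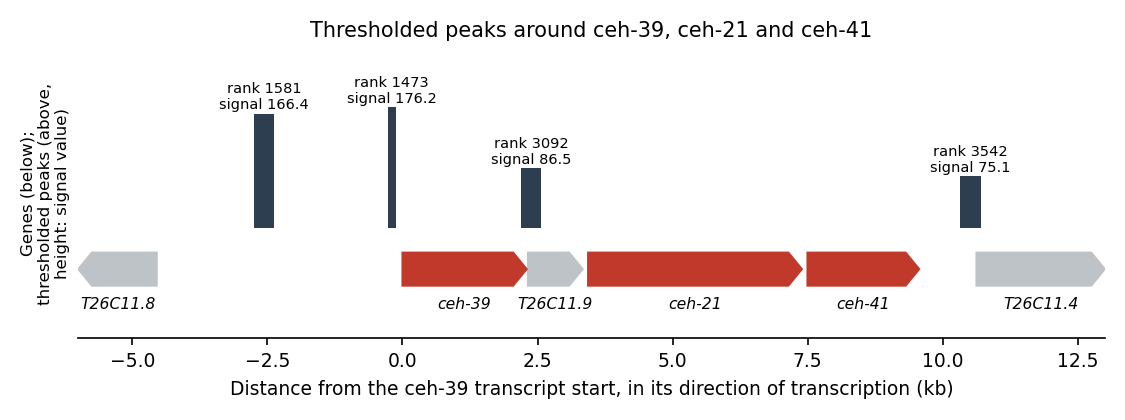
Map of the ceh-39, ceh-21 and ceh-41 row on chromosome X, with distance from the ceh-39 transcript start in its direction of transcription (kb) on the x axis, ceh genes as red arrows, other coding genes as grey arrows, and the 4 thresholded peaks as bars whose height is the signal value. The 2 stronger peaks (signal values 176.2 and 166.4) lie before ceh-39, 1 lies at T26C11.9 and 1 at T26C11.4, and none lies over ceh-21 or ceh-41.

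No ceh gene had a thresholded summit in an intron outside promoter windows. The 0 of 63 genes allow a share of up to 4.76%, taken as 3 counts over 63 (Wilson upper bound 5.75%). Of coding genes 1.79% had such a summit, so the difference was not detectable with this number of genes. Per length, 0 summits in 117 kb of ceh introns allow up to 25.7 per Mb, taken as 3 counts over that length (exact Poisson upper bound 31.6). The rate in all coding genes was 16.2 per Mb (exact Poisson 95% interval 14.7 to 17.7). In the pooled list 13 ceh genes had an intron summit, 20.6% (12.5 to 32.2), beside 15.7% of coding genes. Replicate 1 gave 11 genes, 17.5%, beside 18.6%, and replicate 2 gave 15 genes, 23.8%, beside 18%. The ceh introns were longer, with a median total of 1340 bp per gene beside 735 bp, and the pooled rate was 154 summits per Mb (91.4 to 244) beside 220 (214 to 225). The strongest intron regions were those of ceh-18, with rank 5079, signal value 50.7 and 2 summits, of ceh-43, with rank 6615, signal value 40 and 3 summits, and of ceh-34, with rank 10845, signal value 27.6 and 3 summits. The ceh-34 promoter window had no pooled summit, and the 5 kb upstream of the gene had 2, the strongest of rank 14243.

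Promoter summits of ceh genes lay at about the same positions as those of other genes. The median position was -223 bp over 37 pooled gene and summit pairs and -254 bp over those of all coding genes. Of the ceh pairs, 45.9% lay within 300 bp upstream of the start, beside 41% of all, and 27% lay from 600 to 1000 bp upstream, beside 22.3%. The 4 thresholded summits were spread from -867 to 38 bp. Among all thresholded pairs 57.6% lay within 300 bp upstream, and 1 of the 4 ceh summits did.

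**Figure D5:**
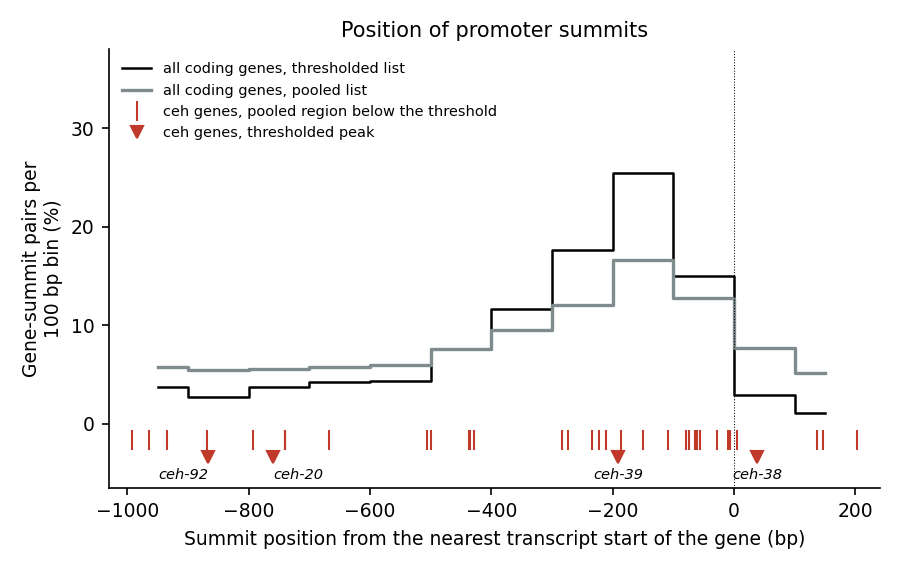
Position of promoter summits relative to the nearest transcript start of the gene (bp, negative upstream): lines give the percentage of gene and summit pairs of all coding genes in each 100 bp bin, for the thresholded (black) and pooled (grey) lists, and red marks below them give each ceh summit. The thresholded ceh summits (triangles) lie at -867, -760, -191 and 38 bp, and the pooled ones are spread along the window.

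Gene layout and chromosome were set beside the promoter share, since both go with it among coding genes. The gap from a ceh gene to the nearest gene upstream had a median of 1806 bp, beside 941 bp over coding genes, and the thresholded share of coding genes was 19.7% for gaps under 500 bp, 17% from 500 to 2000 bp, 9.83% from 2000 to 5000 bp and 8.83% above. The ceh counts in those bins were 2 of 15, 1 of 18, 1 of 15 and 0 of 15 genes. Over pooled regions they were 6, 8, 7 and 9 genes, beside 43.2%, 39.8%, 36.7% and 43.7% of coding genes. A coding-gene share weighted to the chromosomes of the ceh genes was 15.4% in the thresholded and 42.3% in the pooled list. All 8 ceh genes on chromosome III had a pooled promoter region, and 2 a thresholded one, beside 51.1% and 23.3% of its coding genes. On chromosome V 6 of 12 had a pooled and none a thresholded one, beside 31.4% and 9.37%. On II, IV and X the pooled counts were 3 of 13, 1 of 4 and 8 of 18, beside 36%, 39.9% and 48.1%. On I the pooled count was 4 of 8, beside 48.1%. Thresholded counts were 1 on II, 1 on X and none on I or IV. The coding-gene shares there were 14.3%, 13.6%, 22.3% and 15.3%. The part of gene spacing in the lower ceh share was not tested.

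For ceh-44, which shares its annotated start with cone-1, the promoter window held no thresholded and no pooled summit and 1 summit of replicate 1. A thresholded summit lay within the gene body, chrIII:2530620-2543068. With ceh-44 counted, the share with a thresholded promoter summit was 6.25%, 4 of 64 genes.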

How the data were processed

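The files were lists of regions from ChIP-seq of 2 replicate libraries of 1 group. Per the deposited readme files, the relaxed lists were made from alignments and the thresholded list from the 2 replicate lists and the pooled list. Which aligner and peak caller made them is not given in the sources used here. The deposited signal value of each region has no stated scale and ranked regions within its list only; the deposited score, -log10 p-value and -log10 q-value columns were not used. Coordinates are ce11, the same assembly as WBcel235; genes came from Ensembl annotation and bases from RefSeq.

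Summits were assigned with Python 3.11.15, pandas 2.3.3, numpy 2.4.6 and scipy 1.17.1. Promoter windows covered 1000 bp before and 200 bp after each coding transcript start, introns excluded coding exons and all promoter windows, and upstream regions ran 5 kb from the first start without the gene's promoter windows. 1 summit could serve several genes. The lookup of summits in windows was checked on simulated summits. Planting and lookup used the same windows, so an error in the windows themselves could not show. The members, gene lists, homeodomain classes and motifs were chosen with earlier results of these data known, so shares are descriptions with counting intervals and no test was made. Named genes were every gene with a thresholded promoter or upstream summit, a fixed list of well-studied genes, the ceh genes next below the threshold, and the leading intron genes. Only 2 libraries limit what can be said of replicate spread.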

Additional observations from a re-analysis of the deposited data

How the results depend on the processing

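Of 84 alternative values, 15 moved beyond the counting interval of the value reported and 69 were counted as the same. Some of the 69 could not move, because a count of 0 stays 0 with fewer peaks or narrower windows. Shares fixed at 0 in this way also could not change side in the next count. The medians of rank and position, which have no counting interval, were among the 69 too. Of 64 alternatives with a background share, 4 lay on the other side of it than the value reported: the 10000 strongest pooled regions and the 500 bp window in replicate 2, both given below, TGACGTG within 25 bp (0 beside 2.03%) and TAATTA within 100 bp (9.09% beside 5.33%). The share of ceh genes with a thresholded promoter summit ranged from 3.17% to 9.52%. With the stronger 50% of thresholded peaks, the share with a summit in any place was 6.35% (all coding genes 17.2%), that of the other homeobox promoters was 0, that of nhr promoters 2.97%, the intron rate of all coding genes 6.65 per Mb, and TGACGTG was at 0 of 5 ceh summits; within 25 bp it was at 0 of 11. With 2000 bp upstream, nhr promoters reached 14.5% and replicate 2 ceh promoters 60.3% (all 55.2%). With 500 bp, replicate 1 gave 36.5% (35.0%) and replicate 2 31.7% (34.2%). The 10000 strongest relaxed regions gave 23.8% of ceh genes (26%) in the pooled list, 31.7% (25.7%) in replicate 1 and 25.4% (25.3%) in replicate 2. Upstream regions ended at the neighbouring gene gave 3.17% (4.36%). Intron summits inside promoter windows, when kept, raised the coding rate to 22.8 per Mb. Counting ceh-44, an alternative chosen after seeing the data, gave 6.25% for thresholded promoters. The alternatives differ from the reported setting in windows, list lengths or rules of assignment, and the cause of the changes was not tested. No paired analysis was possible because there is 1 group. The lists hold no reads, so depth limits cannot be stated.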
